A study of Mus musculus with 2 samples.

Results

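Luminal mammary cells with transcripts of motile-cilia genes were chosen by their measured values. A cell had to hold at least 500 detected genes, at most 10% mitochondrial UMIs, and Krt18, a luminal keratin, at 50 or more per 10000 UMIs of the cell. A UMI (unique molecular identifier) stands for 1 captured RNA molecule. It also had to hold at least 3 UMIs in sum over 7 cilia genes, Foxj1, Pifo, Dynlrb2, Iqub, Cfap54, Drc1 and Nek5. The rule was met by 296 of 8909 cells that passed the filters on genes and mitochondrial UMIs, 294 in the cKO library and 2 in the Ctrl library. The 294 cells are called cilia-gene cells here, and the 3555 cKO cells that met the Krt18 limit but not the cilia limit are called the other Krt18-high cells, or the others. The name refers to transcripts, since no cilium was looked at. Because the rule used measured values, the levels of the 7 rule genes and of Krt18 describe the choice and are not findings.

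The study asked how gene expression in mouse mammary cells differs after loss of the miR-200c/141 locus, with 1 single-cell library per group. The cKO library came from C57BL/6 mice that carried K8-CreERT2 beside miR-200c/141-flox/flox, and the Ctrl library from C57BL/6 mice with miR-200c/141-flox/flox alone. In cKO mice the Krt8 promoter, which is active in luminal cells, drives a Cre that tamoxifen switches on, so deletion is limited to cells that use this promoter. Both groups received tamoxifen at 8 to 10 weeks of age, and cells were prepared from the glands after 4 more weeks and sorted on markers that are not named. A further label puts the age at 8 weeks. The number of mice behind a library is not stated. With 1 library per group no test between groups was possible, and cells are not replicates. Intervals are 95% intervals that cover counting error only.

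The cKO library held 103668011 UMIs in 6257 barcodes and the Ctrl library 95520633 UMIs in 4237 barcodes. After the filters 5493 cKO and 3416 Ctrl cells were left, of which 3849 and 2146 were Krt18-high. The libraries shared 6 barcodes, and 0 of them were cilia-gene cells. Cilia-gene cells were deeper than the cells they are compared with, at a median of 22895 UMIs (quartiles 15443 and 40537) against 16127 (quartiles 10103.5 and 26482.5) in the other Krt18-high cells. Their median mitochondrial share was 1.93%, against 2.10% in the other Krt18-high cells. Scrublet, a doublet caller run on each library, marked 5 of the cilia-gene cells (1.70%) and 39 of the other Krt18-high cells (1.10%). It marked 1.0% of all kept cKO cells and 0.790% of kept Ctrl cells, low rates for libraries of this size, so undetected doublets may remain.

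Motile cilia bend because dynein arms slide the microtubule doublets of the axoneme against each other, while radial spokes, the central pair and nexin links shape the beat. In airway, oviduct and ependyma, multiciliated cells enter this programme through Gmnc and Mcidas, which act with E2F factors, and then through Foxj1 and RFX factors, which switch on the genes of the axoneme. The mammary epithelium is built of hormone-sensing luminal cells, luminal progenitors that can make milk proteins, and contractile basal cells.

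The locus to be deleted in cKO encodes miR-200c and miR-141, and their mature 3p strands are shown because the design targets this locus. Capitals mark the seed, bases 2 to 8. In GRCm38.p6 (mm10), per RefSeq, miR-200c-3p lies at chr6:124718324-124718346 and miR-141-3p at chr6:124717917-124717938, both on the minus strand.
miR-200c-3p: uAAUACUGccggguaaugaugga
miR-141-3p: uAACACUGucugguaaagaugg
The levels of both microRNAs were not analysed here, so the deletion itself was not checked in the cells.

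Promoters of cilia genes often hold an X-box, the RFX binding site, of which GTTGCC (or GGCAAC on the other strand) is a core stretch. The promoters of 4 rule genes and of Tekt1, the gene outside the rule with the highest ratio among those found in at least 10% of cilia-gene cells, are shown as RefSeq has them in GRCm38.p6, from 250 bases before to 50 after an annotated start. Capitals mark GTTGCC or GGCAAC, and in Iqub the forkhead letters GTAAACA on the other strand (TGTTTAC). Pifo and Tekt1 have 2 annotated starts each in the table, and for each the window that holds the letters is shown. The second windows, at chr3:106014597-106014896 (Pifo) and chr11:72361247-72361546 (Tekt1), held them at 0 places. The window shown for Pifo lies at chr3:106001448-106001747 on the minus strand. The others lie at chr8:116504765-116505064 on the plus strand (Dynlrb2), chr5:30281143-30281442 on the plus strand (Drc1), chr6:24515018-24515317 on the minus strand (Iqub) and chr11:72361833-72362132 on the minus strand (Tekt1).
Pifo: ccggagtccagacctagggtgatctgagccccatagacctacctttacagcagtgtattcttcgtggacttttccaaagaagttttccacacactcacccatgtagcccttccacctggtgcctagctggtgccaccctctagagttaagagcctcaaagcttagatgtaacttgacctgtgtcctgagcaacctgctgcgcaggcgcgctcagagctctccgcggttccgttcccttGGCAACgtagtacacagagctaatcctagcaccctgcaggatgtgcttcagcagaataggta
Dynlrb2: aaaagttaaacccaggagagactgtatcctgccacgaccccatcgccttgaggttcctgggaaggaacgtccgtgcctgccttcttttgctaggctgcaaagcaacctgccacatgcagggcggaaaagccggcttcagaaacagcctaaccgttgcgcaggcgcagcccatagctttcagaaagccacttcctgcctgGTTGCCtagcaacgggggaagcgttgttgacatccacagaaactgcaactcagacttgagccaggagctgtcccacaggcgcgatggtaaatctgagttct
Drc1: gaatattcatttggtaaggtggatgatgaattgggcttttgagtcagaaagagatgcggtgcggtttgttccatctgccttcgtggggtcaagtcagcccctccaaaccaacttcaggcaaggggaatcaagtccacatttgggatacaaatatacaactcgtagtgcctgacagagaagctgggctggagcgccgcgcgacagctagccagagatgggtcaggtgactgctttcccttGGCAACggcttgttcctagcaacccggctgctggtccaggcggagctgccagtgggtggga
Iqub: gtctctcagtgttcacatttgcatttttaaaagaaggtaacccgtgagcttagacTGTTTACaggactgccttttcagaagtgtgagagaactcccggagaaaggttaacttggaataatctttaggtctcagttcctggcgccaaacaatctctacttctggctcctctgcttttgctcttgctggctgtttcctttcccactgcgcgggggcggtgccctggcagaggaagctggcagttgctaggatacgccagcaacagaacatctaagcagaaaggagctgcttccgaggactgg
Tekt1: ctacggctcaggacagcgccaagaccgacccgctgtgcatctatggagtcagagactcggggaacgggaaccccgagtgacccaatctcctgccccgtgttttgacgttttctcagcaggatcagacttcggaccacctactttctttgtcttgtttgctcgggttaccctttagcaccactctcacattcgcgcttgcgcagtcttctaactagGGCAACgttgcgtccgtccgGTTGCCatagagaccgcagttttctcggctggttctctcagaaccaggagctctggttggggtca
The shown Tekt1 window held the letters at 2 places and the windows of Pifo, Dynlrb2 and Drc1 at 1 each, while the Iqub window held none. On either strand, GTTGCC was found in a promoter of 4 of the 5 rule genes that the table lists, and in 14.1% of all 27023 genes with a promoter.

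Cells that met the rule made up 294 of 3849 Krt18-high cells in cKO (7.64%, exact Clopper-Pearson interval 6.82% to 8.52%) and 2 of 2146 in Ctrl (0.0932%, 0.0113% to 0.336%). Krt18-low cells, in which luminal transcripts are scarce, met the cilia limit in 3 of 1644 cases in cKO (0.182%, 0.0376% to 0.532%) and in 0 of 1270 in Ctrl, which allows a share of up to 0.236%. Any UMI of a rule gene was found in 17.7% of Krt18-high cells in cKO and 3.12% in Ctrl, and in 4.44% of Krt18-low cells in cKO (median 8459.5 UMIs) and 4.09% in Ctrl (median 10535 UMIs). Krt18-high cells had a median of 16693 UMIs in cKO and 29705.5 UMIs in Ctrl, so the Ctrl cells were deeper. With every Krt18-high cell thinned to 3000 UMIs, which left out 78 cKO and 25 Ctrl cells, 1.03% of cKO cells (0.736% to 1.41%) and 0 of 2121 Ctrl cells still held 3 rule UMIs. At that depth a single rule UMI was seen in 6.55% of cKO cells (5.78% to 7.39%) and 0.236% of Ctrl cells (0.0766% to 0.549%). Whether the difference between the libraries belongs to the genotype or to the mice and the preparation cannot be told apart with 1 library each.

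**Figure D1:**
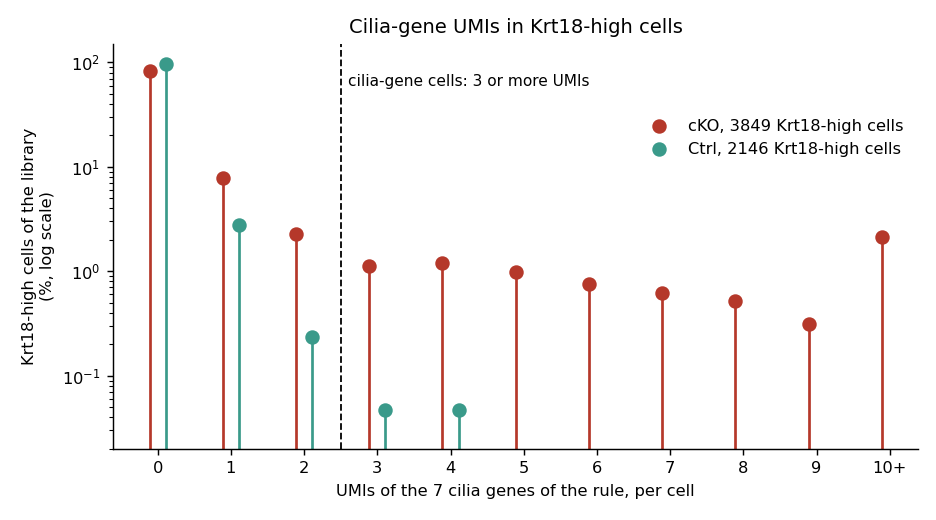
Share of Krt18-high cells (y axis, percent, log scale) by the number of rule-gene UMIs in the cell (x axis, cells with 10 or more pooled), for 3849 cKO and 2146 Ctrl cells; the dashed line is the limit of the rule. In cKO the points run on past the limit to 10 and more UMIs, while the 2 Ctrl cells past it hold 3 and 4.

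The 2 Ctrl cells met the rule through Foxj1 alone. They held 4 and 3 Foxj1 UMIs at totals of 30404 and 54341 UMIs, and 0 UMIs of the other 6 rule genes, of Cbr2, Il33, Pcp4 and of 1110017D15Rik. Among the 294 cilia-gene cells, 17 held UMIs of 1 of the 7 genes, 44 of 2, 71 of 3, 74 of 4, 55 of 5, 23 of 6 and 10 of all 7. The sum of rule UMIs per cilia-gene cell ran from 3 to 27 with a median of 6. Just inside the limit, 43 cKO cells held 3 rule UMIs, and just outside it 87 held 2 and 299 held 1. In Ctrl, 1 cell held exactly 3, 5 held 2 and 60 held 1.

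Levels are given as CPM, counts per 1000000 UMIs pooled over the cells of a group. Foxj1, the forkhead factor of motile cilia, stood at 39.1 CPM in cilia-gene cells and 1.39 CPM in the other Krt18-high cells, against 0.505 CPM in Ctrl Krt18-high cells. Pifo, a ciliary protein, stood at 65.4 CPM in cilia-gene cells, 0.799 CPM in the others and 0.0776 CPM in Ctrl. Dynlrb2, a dynein light chain, stood at 49.8 CPM in cilia-gene cells, 1.60 CPM in the others and 0.0776 CPM in Ctrl. Iqub, a radial spoke protein, stood at 49.1 CPM in cilia-gene cells, 0.482 CPM in the others and 0.0129 CPM in Ctrl. Cfap54 of the central pair, Drc1 of the nexin links and the kinase Nek5 stood at 21.6, 15.7 and 17.8 CPM in cilia-gene cells, and between 0.303 and 1.23 CPM in the other Krt18-high cells. Pifo was found in 77.9% of cilia-gene cells, Iqub in 66.3%, Dynlrb2 in 65.6%, Foxj1 in 54.1%, and the other 3 in 32.7% to 39.8%. Dynlrb1, the close paralog of Dynlrb2 that serves cytoplasmic dynein, stood at 103.2 CPM in cilia-gene cells and 103.7 CPM in the other Krt18-high cells, a log2 ratio of -0.01 (-0.11 to 0.09).

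Cilia genes outside the rule were next compared between cilia-gene cells and the other Krt18-high cells of the same library, by pooled CPM. A gene was compared if its pooled level would give at least 5 UMIs in the cilia-gene cells, and it was called when the ratio was at least 2-fold. Of 12496 genes compared, 629 (5.03%) were at least 2-fold higher in cilia-gene cells and 308 (2.46%) were lower by as much, and the median over all was -0.01 on the log2 scale. Of 219 genes of 6 cilia lists found in the files and not used by the rule, 139 were compared, and 99 of these were at least 2-fold higher and 0 lower (median log2 ratio 2.13). Of all 219 genes, 184 had a UMI in cilia-gene cells and 35 had none. A gene can pass this filter through the cilia-gene cells alone and then has to differ. By the level in the other Krt18-high cells alone, 112 of the cilia genes would be compared, with 72 of them higher and 0 lower (median log2 ratio 1.71), beside 542 higher of 12410 genes. Tekt1, Armc4, Ccdc151, Lrrc6, Dnah6, Rsph4a, Ccdc39, Ccdc40, Drc7, Cfap44, Cfap77, Ccdc153 and Lrrc23 are among those that pass only through the cilia-gene cells. A second comparison used only the 1264 other Krt18-high cells with at least 3 UMIs of the hormone receptors Prlr, Pgr and Esr1 and fewer than 3 of the progenitor genes Aldh1a3, Elf5 and Kit, called hormone-sensing-side cells. Against these, 997 of 12665 genes (7.87%) were at least 2-fold higher and 595 (4.70%) lower, and 114 of 157 cilia genes were higher and 1 lower (median log2 ratio 1.96). The lists and the cells were chosen with results of these data known, so the counts describe them and are set beside the counts over all genes.

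Among the regulators of multiciliation, 2 of 15 genes compared were at least 2-fold higher, 0 were lower, and the median log2 ratio was -0.08. Gmnc, Mcidas, Ccno, Cdc20b and Trp73, which stand at the top of the multiciliated programme or drive its centriole amplification, had 0 UMIs in the 294 cells, which allows up to 0.341 CPM for each. Gmnc and Cdc20b had 0 UMIs in all kept cells of both libraries, and Mcidas had 0 in cKO and 1 in Ctrl, so these transcripts were at or near 0 throughout the libraries. Ccno had 32 UMIs in all kept cKO cells and 70 in all kept Ctrl cells, and Trp73 had 4 in each. Deup1, which builds the deuterosomes that amplify centrioles, had 2 UMIs in cilia-gene cells.

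The 2 regulators past 2-fold were the kinases Stk36 and Ulk4. Stk36, which is needed for the central pair, had 41 UMIs (4.66 CPM) in cilia-gene cells and 70 UMIs (0.964 CPM) in the other Krt18-high cells, a log2 ratio of 2.27 (1.68 to 2.85). Ulk4 had a log2 ratio of 2.13 (1.61 to 2.64). The RFX factor Rfx3 stood at 12.7 CPM in cilia-gene cells and 6.60 CPM in the other Krt18-high cells, a log2 ratio of 0.95 (0.64 to 1.25), and Rfx2 at 3.97 CPM in cilia-gene cells and 2.56 CPM in the others. Myb, which acts early in airway multiciliated cells, stood at 27.3 CPM in cilia-gene cells and 13.8 CPM in the others (log2 ratio 0.98). E2f4, a partner of Mcidas, stood at 45.4 CPM in cilia-gene cells and 49.8 CPM in the others.

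Axonemal dyneins and their docking proteins move the cilium. Of 14 compared, 12 were at least 2-fold higher and 0 lower (median log2 ratio 3.0), against 7 of 9 by the level in the others alone. Armc4 and Ccdc151, which dock the outer dynein arms, had 40 and 44 UMIs in cilia-gene cells and 7 and 6 UMIs in the other Krt18-high cells, log2 ratios of 5.56 (4.38 to 6.96) and 5.92 (4.68 to 7.44). Dnali1, an inner-arm light intermediate chain, stood at 18.8 CPM in cilia-gene cells and 0.579 CPM in the others (log2 ratio 5.03, 4.53 to 5.55). The heavy chains were unevenly covered. Dnah11 had 143 UMIs in cilia-gene cells and 129 in the other Krt18-high cells (log2 ratio 3.19), and Dnah6 had 33 in cilia-gene cells and 25 in the others (3.44). Dnah5, a main outer-arm heavy chain, had 0 UMIs in all kept cells of both libraries, as did Dnah3, and Dnah10, Dnah14 and Dnah17 had 0 in cilia-gene cells. Dnaic1, an outer-arm intermediate chain, stood at 13.2 CPM in cilia-gene cells and 10.2 CPM in the other Krt18-high cells, and thus under 2-fold.

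The factors that assemble dynein arms in the cytoplasm were less far apart, with 3 of 11 at least 2-fold higher, 0 lower and a median log2 ratio of 0.84. By the level in the others alone, 2 of 10 were higher and 0 lower (median 0.74). Lrrc6 had 45 UMIs in cilia-gene cells and 13 in the other Krt18-high cells, a log2 ratio of 4.83 (3.92 to 5.85). Ccdc103 and Dnaaf3 had log2 ratios of 2.07 and 1.39, and each overlaps another annotated gene on the same strand, so part of their reads may be missing. Ruvbl1, an ATPase that many cells use, stood at 96.4 CPM in cilia-gene cells and 77.4 CPM in the others.

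Radial spoke and central pair genes had the highest median of the lists, 3.42, with 12 of 14 at least 2-fold higher and 0 lower, against 8 of 10 by the level in the others alone. Rsph1 of the spoke head was found in 70.7% of cilia-gene cells and 8.21% of the other Krt18-high cells, at 55.3 CPM in cilia-gene cells and 4.74 CPM in the others (log2 ratio 3.54, 3.34 to 3.75). Rsph4a, another spoke-head protein, stood at 11.2 CPM in cilia-gene cells and 0.524 CPM in the others (log2 ratio 4.42). Spag6l of the central pair stood at 20.8 CPM in cilia-gene cells and 1.83 CPM in the others (log2 ratio 3.50). Nme5, a spoke protein, was found in 86.4% of cilia-gene cells and 13.5% of the others.

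Nexin links, molecular rulers and proteins inside the microtubule doublets gave 27 of 31 genes at least 2-fold higher and 0 lower (median log2 ratio 3.05), against 18 of 22 by the level in the others alone. Tekt1, a tektin of the doublet wall, had 104 UMIs (11.8 CPM) in cilia-gene cells and 7 UMIs (0.0964 CPM) in the other Krt18-high cells, a log2 ratio of 6.94 (5.84 to 8.29). Ccdc39 and Ccdc40, which form the ruler that spaces the spokes, had log2 ratios of 4.38 and 4.22. Drc7 of the nexin links had a log2 ratio of 5.52, and Cfap206, Cfap44 and Cfap77 had 5.14, 5.55 and 4.78. Drc7, Cfap44 and Cfap77 pass the filter only through the cilia-gene cells. Mns1, a protein inside the doublets, was found in 84.0% of cilia-gene cells and 8.75% of the other Krt18-high cells.

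Of 54 further genes of ciliated cells, 43 were at least 2-fold higher and 0 lower (median log2 ratio 2.01). By the level in the others alone, 35 of 46 were higher and 0 lower (median 1.75). Most widespread among the highest was 1110017D15Rik, with 1424 UMIs (161.7 CPM, 85.0% of cells) in cilia-gene cells and 350 UMIs (4.82 CPM, 6.10% of cells) in the other Krt18-high cells, a log2 ratio of 5.07 (4.90 to 5.24). Ccdc153, Tmem212 and Fam183b had log2 ratios of 6.36, 5.88 and 5.72. Tubb4b, a tubulin of cilia that other cells also use, and Ezr, a membrane linker of luminal cells, stood at 599 and 558 CPM in cilia-gene cells, and 536 and 503 CPM in the other Krt18-high cells. Together with Capsl these genes made up a large part of the summed cilia level outside the cilia-gene cells: Tubb4b gave 20.3%, Ezr 19.1% and Capsl 11.3% of it in the other Krt18-high cells.

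Genes of intraflagellar transport, the BBSome and the primary cilium, which most epithelial cells can use for a sensory cilium, were higher by smaller ratios. Of 40 genes, all compared, 23 were at least 2-fold higher and 0 lower (median log2 ratio 1.09). Ift74, a subunit of the transport train, stood at 81.1 CPM in cilia-gene cells and 19.9 CPM in the other Krt18-high cells, a log2 ratio of 2.03 (1.89 to 2.16). Ttc30b and Ttc26 had log2 ratios of 2.65 and 2.08, Bbs5 of the BBSome 1.86, and Wdr34, an intermediate chain of the retrograde dynein, 1.79. Against the hormone-sensing-side cells, 17 of the 40 were higher by at least 2-fold and 0 lower (median 0.73).

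**Figure D2:**
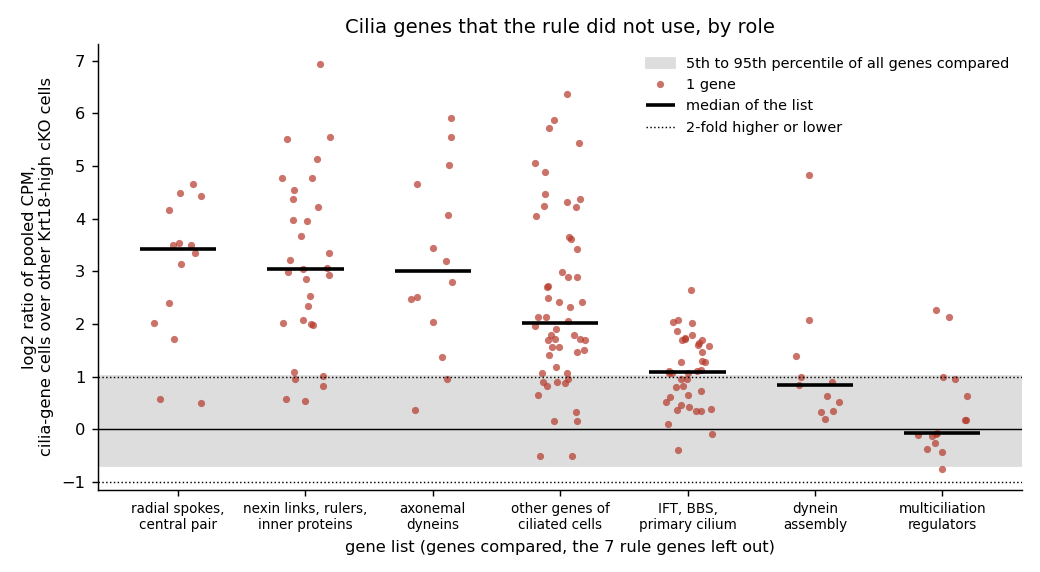
Log2 ratio of pooled CPM, cilia-gene cells over other Krt18-high cKO cells (y axis), for each compared gene of 7 lists (x axis), with the list's median as a bar and the 5th to 95th percentile of all genes compared as a grey band. Medians run from 3.42 for radial spokes and central pair to -0.08 for multiciliation regulators.

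In the promoter windows, GTTGCC on either strand was present in 43.2% of 81 cilia genes that were at least 2-fold higher, in 45.7% of 35 cilia genes compared and not higher, and in 14.1% of all genes. Of the 226 cilia genes of the lists and the rule, 191 had a promoter in the table and 46.1% of these held the letters. The forkhead letters GTAAACA were present in 3.70% of the 81, 11.4% of the 35 and 4.05% of all genes. A match of these letters is a description of the window and not a measured binding site.

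The cilia-gene cells held more cilia genes per cell as well as more UMIs. Of the 219 genes outside the rule, a cilia-gene cell held a median of 53 (quartiles 42 and 64, range 8 to 100), an other Krt18-high cell 17 (11 and 24, 0 to 62), a Krt18-low cKO cell 8 and a Ctrl Krt18-high cell outside the rule 21. With cells thinned to 3000 UMIs the medians were 13 (quartiles 9 and 17) in 293 cilia-gene cells and 5 (4 and 7) in 3478 other Krt18-high cells. The summed level of these genes was 5308 CPM in cilia-gene cells, 2635 CPM in the other Krt18-high cells and 2676 CPM in Ctrl Krt18-high cells.

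The level of these genes rose with the rule UMIs both below and above the limit of the rule, though not from 3 to 4. The median summed level over the cKO Krt18-high cells was 24.1 per 10000 UMIs in the 3169 cells with 0 rule UMIs, 29.3 in the 299 cells with 1 and 37.4 in the 87 cells with 2. It was 47.0 in the 43 cells with 3, 45.8 in the 46 cells with 4, 55.4 in the 123 cells with 5 to 9 and 76.2 in the 82 cells with 10 or more. Cells with 1 or 2 rule UMIs thus lay between the 2 sides, and the neighbouring groups overlapped in their quartiles. Cbr2 was found in 6.69% of cells with 0 rule UMIs, 47.1% of cells with 2 and 95.1% of cells with 10 or more, and Il33 in 10.4%, 47.1% and 84.1%.

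**Figure D3:**
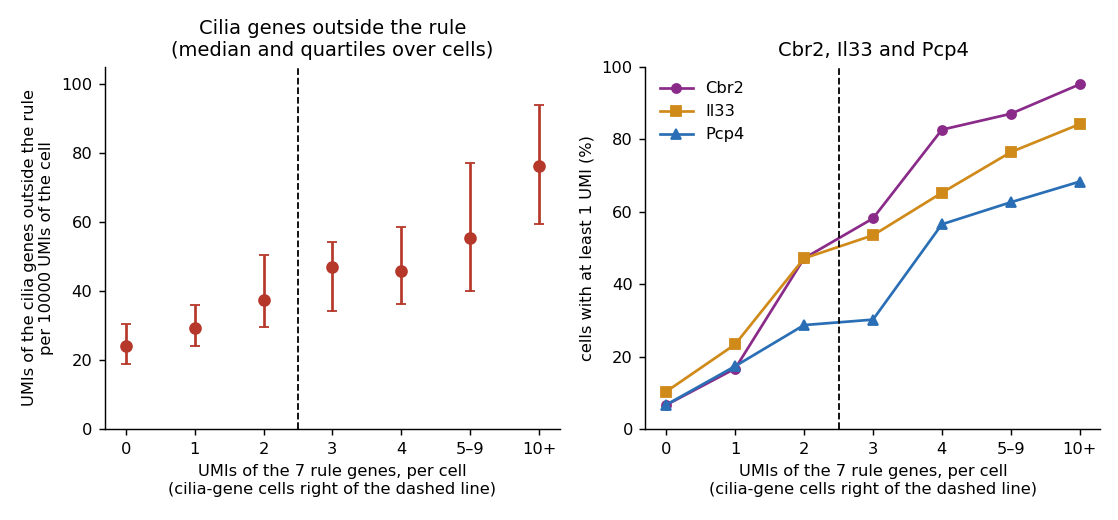
Left, summed UMIs of 219 cilia genes outside the rule per 10000 UMIs of the cell (y axis; points are medians over cKO Krt18-high cells, bars the quartiles) by rule-gene UMIs per cell (x axis); right, share of the same cells with at least 1 UMI of Cbr2, Il33 or Pcp4. The medians lie at 24.1 with 0 rule UMIs and 76.2 with 10 or more. Across the dashed limit of the rule, the quartiles of cells with 2 and with 3 rule UMIs overlap.

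By correlation over the 3849 cKO Krt18-high cells, the genes most like the sum of the rule genes were again mostly of cilia. Among 11531 genes found in at least 2% of the cells, the highest Pearson r of log values was 0.73 for 1110017D15Rik, followed by Mns1 (0.68), Nme5 (0.64), Cbr2 (0.63), 1700016K19Rik (0.60), Cfap126 (0.57), Cfap206 (0.55), Rsph1 (0.54), 2410004P03Rik (0.54) and Fam183b (0.53). The cells share a library and differ in depth, so r is given as a description. Of these 10 genes, 7 were on a cilia list.

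Cbr2, Il33 and Pcp4 had been named as markers of these cells with results of these data known, and their values are a description. Cbr2, a carbonyl reductase, had 1386 UMIs (157.4 CPM) in cilia-gene cells and 821 UMIs (11.3 CPM) in the other Krt18-high cells, a log2 ratio of 3.80 (3.67 to 3.92). It was found in 84.4% of cilia-gene cells, in 8.52% of the others and in 12.2% of Krt18-low cKO cells. In Ctrl it stood at 11.8 CPM in Krt18-high cells and 34.3 CPM in Krt18-low cells, so it was not confined to cells with cilia genes. Within Ctrl it stood at 2.92 CPM on the hormone-sensing side and 21.5 CPM on the progenitor side.

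Il33, a nuclear cytokine released by damaged cells, stood at 224.7 CPM in cilia-gene cells, 25.8 CPM in the other Krt18-high cells and 149 CPM in Krt18-low cKO cells. The Ctrl library held 1.72 CPM in Krt18-high and 12.5 CPM in Krt18-low cells. Il33 was thus higher in each of these cKO groups than in either Ctrl group, and highest in the cilia-gene cells. Pcp4, a small calmodulin-binding protein, stood at 229.4 CPM in cilia-gene cells and 21.7 CPM in the other Krt18-high cells, a log2 ratio of 3.40 (3.31 to 3.5). It stood at 19.7 CPM in Ctrl Krt18-high cells and at 40.8 CPM in those on the hormone-sensing side alone, against 36.5 CPM in the cKO hormone-sensing-side cells.

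Luminal identity was read from the same raw UMIs, with 3 or more of Prlr, Pgr and Esr1 for the hormone-sensing side and 3 or more of Aldh1a3, Elf5 and Kit for the progenitor side. At full depth nearly all cilia-gene cells were on the hormone-sensing side: 139 of 294 (47.3%, 41.5% to 53.2%) were on the hormone-sensing side only, 151 (51.4%, 45.5% to 57.2%) on both, 1 (0.340%) on the progenitor side only and 3 (1.02%) on neither. Of the other Krt18-high cells, 35.6% were on the hormone-sensing side only, 31.8% on both, 24.4% on the progenitor side only and 8.30% on neither. Read the other way, cilia-gene cells were 9.91% of 1403 cells on the hormone-sensing side only (8.39% to 11.6%), 11.8% of 1280 on both (10.1% to 13.7%) and 0.115% of 868 on the progenitor side only (0.00292% to 0.640%).

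The share on both sides went with depth. Cilia-gene cells on both sides had a median of 39251 UMIs, and those on the hormone-sensing side only 15440. With cells thinned to 3000 UMIs, 9.22% of cilia-gene cells (6.16% to 13.1%) and 4.97% of the other Krt18-high cells (4.28% to 5.75%) were on both sides, and 48.8% of cilia-gene cells and 34.3% of the others on the hormone-sensing side only. The thinned share on the progenitor side only was 10.2% of cilia-gene cells and 25.8% of the others. On neither side were 31.7% of thinned cilia-gene cells and 34.9% of the others. Having nearly all cilia-gene cells on the hormone-sensing side thus did not hold after thinning with the limit for a side unchanged. With that limit lowered to 1 UMI in thinned cells, 55.3% of cilia-gene cells were on the hormone-sensing side only and 37.9% on both. For the others these shares were 38.6% and 26.2%. With a limit of 2 UMIs they were 54.3% and 20.8% for cilia-gene cells, and 39.7% and 11.5% for the others. The result after thinning thus depended on the limit. Doublets, free RNA and cells that hold both gene sets were not told apart.

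**Figure D4:**
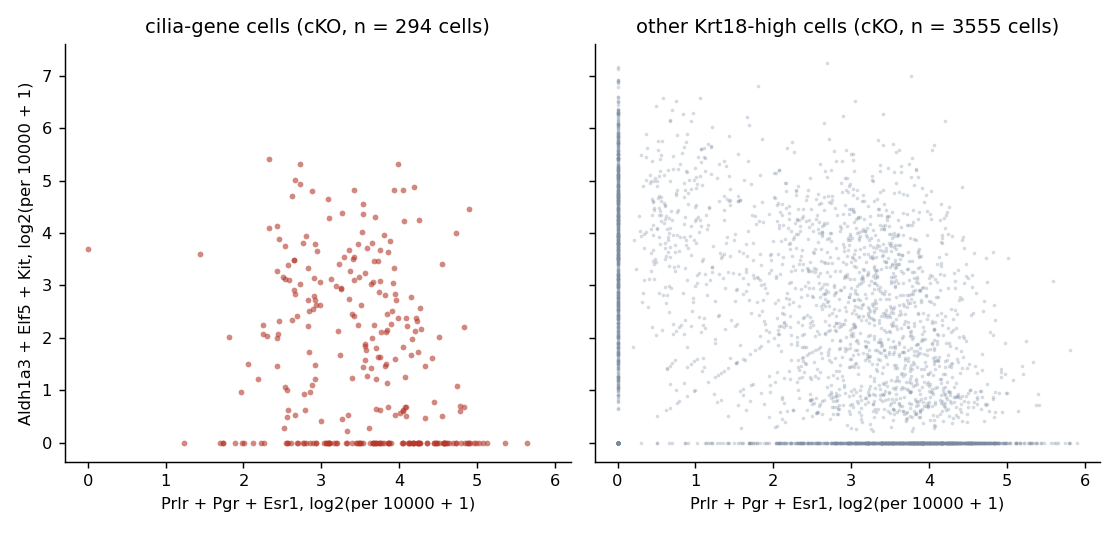
Each point is 1 cKO Krt18-high cell, with the summed hormone receptors Prlr, Pgr and Esr1 on the x axis and the summed progenitor genes Aldh1a3, Elf5 and Kit on the y axis, both as log2(UMIs per 10000 + 1), for 294 cilia-gene cells (left) and 3555 other Krt18-high cells (right). Cilia-gene cells lie to the right, with and without progenitor genes, and the column of cells without hormone receptors is nearly empty among them.

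Hormone receptors were compared by level as well, although Prlr, Pgr and Esr1 also set the sides, so their levels in hormone-sensing-side cells describe that choice. Esr1, the oestrogen receptor, stood at 41.6 CPM in cilia-gene cells and 20.6 CPM in the other Krt18-high cells, a log2 ratio of 1.02 (0.85 to 1.18), and was found in 60.2% of cilia-gene cells and 28.3% of the others. Against the hormone-sensing-side cells alone, at 34.5 CPM, its log2 ratio was 0.27 (0.08 to 0.46). Prlr, the prolactin receptor, stood at 982 CPM in cilia-gene cells and 734 CPM in the others, and at 1204 CPM in hormone-sensing-side cells. Pgr, the progesterone receptor, stood at 63.6 CPM in cilia-gene cells, 52.6 CPM in the others and 85.7 CPM in hormone-sensing-side cells. The cilia-gene levels here pool all such cells, those on both sides included. Without progenitor genes in both groups, Prlr, Pgr and Esr1 summed to 1323 CPM in cilia-gene cells and 1325 CPM in hormone-sensing-side cells. Greb1, an oestrogen-induced gene, stood at 72.1 CPM in cilia-gene cells, 25.5 CPM in the others and 42.7 CPM in hormone-sensing-side cells, and its log2 ratio against the others was 1.5 (1.37 to 1.63). Fxyd2, a subunit of the sodium pump, stood at 1727 CPM in cilia-gene cells, 727 CPM in the others and 1179 CPM in hormone-sensing-side cells.

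Of 17 genes of hormone-sensing cells compared, 3 were at least 2-fold higher, Esr1, Greb1 and Fxyd2, and 1 was lower (median log2 ratio 0.42). The lower one was Calca, the calcitonin gene, with 0 UMIs in cilia-gene cells and 47 UMIs (0.648 CPM) in the other Krt18-high cells. In Ctrl Krt18-high cells Calca stood at 1988 CPM, so it was low in cKO Krt18-high cells as a whole. Against the hormone-sensing-side cells, 0 of the 17 were past 2-fold upward and 2 lower (median -0.27). With hormone-sensing-side cells without progenitor genes in both groups, 597 of 10441 genes (5.72%) were higher by at least 2-fold and 395 (3.78%) lower. Of the genes of hormone-sensing cells 1 of 16 was then higher and 1 lower, with a median of 0.12. Areg, which encodes the oestrogen target amphiregulin and was picked after its values were seen, stood at 1672 CPM in cilia-gene cells and 2708 CPM in the other Krt18-high cells. Its log2 ratio against hormone-sensing-side cells was -1.53, with cilia-gene cells on both sides included.

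Of 15 progenitor genes compared, 0 were higher by at least 2-fold and 4 lower (median log2 ratio -0.47). Csn3, the kappa casein of milk, stood at 74.0 CPM in cilia-gene cells and 340 CPM in the other Krt18-high cells, a log2 ratio of -2.20 (-2.31 to -2.09). Kit, a receptor of progenitors, had a log2 ratio of -1.06 and Trf, transferrin, -1.25. Aldh1a3, a retinaldehyde dehydrogenase, stood at 629 CPM in cilia-gene cells and 934 CPM in the others. Hormone-sensing-side cells were chosen for few UMIs of Aldh1a3, Elf5 and Kit, so progenitor genes were set against them only with the same limit on the cilia-gene cells. With that limit 1 of 13 progenitor genes was higher by at least 2-fold and 2 were lower, with a median of -0.50. Keratins and adhesion genes of luminal cells differed little, with 0 of 13 past 2-fold in either direction: Krt8 stood at 3743 CPM in cilia-gene cells and 4282 CPM in the others and Epcam, an epithelial adhesion protein, at 7434 CPM in cilia-gene cells and 8821 CPM in the others.

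**Figure D5:**
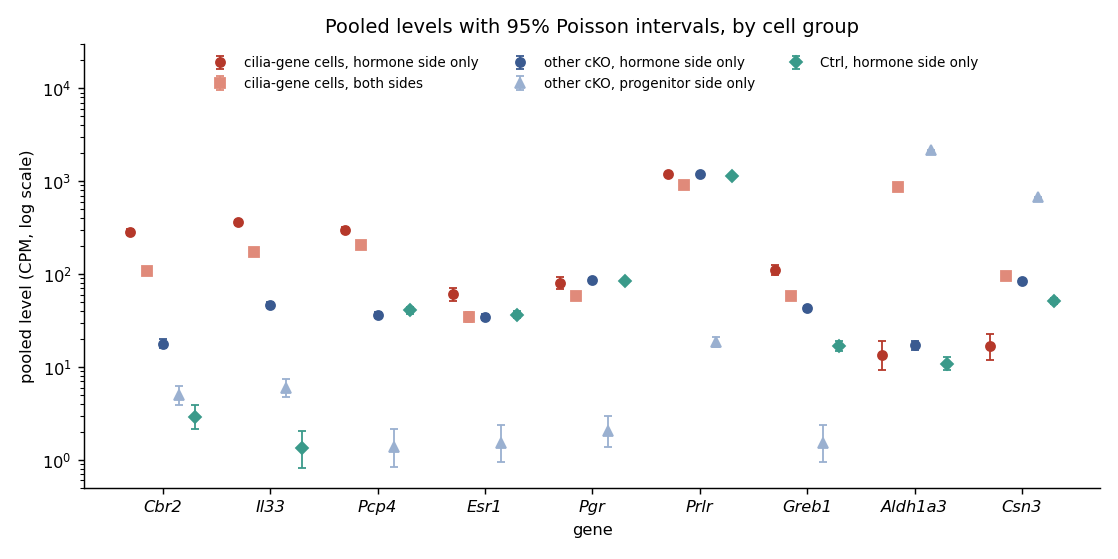
Pooled level (y axis, CPM, log scale) of 9 genes (x axis) in cilia-gene cells on the hormone-sensing side only or on both sides, in other cKO Krt18-high cells on the hormone-sensing or progenitor side only, and in Ctrl Krt18-high cells on the hormone-sensing side only; bars are 95% Poisson intervals. Cbr2, Il33 and Pcp4 are highest in the cilia-gene cells, while Prlr is at 1182 CPM in those on the hormone-sensing side only and 1204 CPM in the other hormone-sensing-side cells.

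The cilia-gene cells varied among themselves. Those on the hormone-sensing side only had a summed level of 7202 CPM for the cilia genes outside the rule, and those on both sides 4605 CPM. Cbr2 stood at 285 CPM in the cells on the hormone-sensing side only and 109 CPM in those on both sides, and Il33 at 361 CPM in the cells on the hormone-sensing side only and 174 CPM in those on both sides. Over the 294 cells the summed cilia level per 10000 UMIs had a Pearson r of 0.48 with Cbr2, 0.25 with Il33, 0.24 with Foxj1, -0.42 with Aldh1a3 and -0.57 with the total UMIs of the cell. These correlations share a library, and by the last one shallower cells had the higher summed cilia levels, in a set chosen by raw UMIs.

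The cKO Krt18-high cells were also clustered without the rule genes and the genes of the 6 cilia lists. The list of intraflagellar transport, the BBSome and the primary cilium is not one of these 6. Genes outside the 6 lists that are also of cilia stayed in, Ttc12, a dynein assembly factor, among them, so the clustering was not free of cilia genes. Of 294 cilia-gene cells, 167 (56.8%) fell in 1 of 10 clusters, of which they made up 72.3% of 231 cells, while 1.80% of the other Krt18-high cells fell there. The genes that define this cluster were led by Cbr2, Pltp and 1700001C02Rik, and Il33 and Pcp4 were among the first 10. The 127 cilia-gene cells outside it lay mostly in clusters of cells with both gene sets or of hormone-sensing-side cells. At a finer resolution of 1.0 the main cluster held 58.2%, with cilia-gene cells as 71.8% of it. At 0.25 the main cluster was a large one of 1480 cells that held 55.8% of the cilia-gene cells, and a second of 169 cells held 31.0%.

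The cilia-gene cells in the cluster differed from those outside it in depth and level. Inside, the median was 19432 UMIs and 74.0 cilia UMIs per 10000, and 0% were called doublets. Outside, it was 35902 UMIs and 41.6 per 10000, and 3.94% were called doublets. Aldh1a3 stood at 408 CPM inside and 809 CPM outside. The other 64 cells of the cluster, which missed the rule, had a median of 1 rule UMI at 13000 UMIs, 47.5 cilia UMIs per 10000, Cbr2 at 379 CPM and Il33 at 449 CPM.

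Genes outside all lists also entered the 20 highest ratios. These were 3300002A11Rik (log2 ratio 6.29), 2410004P03Rik (5.81), Fam47e (5.72), 1700001C02Rik (5.46) and Dnajb13 (5.29), the last a radial spoke protein known from human cilia. The lowest among genes found in at least 10% of cells of the higher group, after Csn3, were led by Upk3a, a uroplakin, at 106.8 CPM in cilia-gene cells and 458 CPM in the other Krt18-high cells (log2 ratio -2.10). Fgb, a fibrinogen chain, stood at 472 CPM in cilia-gene cells and 1237 CPM in the others (-1.39), and Reg3g, an antimicrobial lectin, at 89.7 CPM in cilia-gene cells and 199.5 CPM in the others (-1.15). In hormone-sensing-side cells Upk3a stood at 830.4 CPM, Fgb at 2203 CPM and Reg3g at 384 CPM, so all cilia-gene cells pooled lay lower against them too. Of the cilia-gene cells 151 were on both sides, so these groups are not matched in progenitor genes. Also among the lowest were Khdrbs3, Zfp979, Trf, Muc16, Ggt1, Insig1, Angptl6, Cthrc1, Plin2 and Arrb1, with log2 ratios of -1.10 to -1.55.

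Of 19 cell cycle genes compared, 0 were higher by at least 2-fold and 8 lower (median log2 ratio -0.51). Mki67, a marker of cycling cells, had 16 UMIs in cilia-gene cells and 354 in the other Krt18-high cells (1.82 CPM in cilia-gene cells and 4.88 CPM in the others, log2 ratio -1.42, -2.25 to -0.71), and 1 cell gave 50% of the 16. Ccnb2 had 7 UMIs in cilia-gene cells and 282 UMIs in the others. Ccnd1, cyclin D1, stood at 140.7 CPM in cilia-gene cells and 133.2 CPM in the others (log2 ratio 0.08, -0.01 to 0.17). In cilia-gene cells on the hormone-sensing side only it stood at 77.9 CPM. The others on that side are not set beside this last level, so it is not a comparison.

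In the Notch pathway, whose signalling holds back multiciliation in airway and frog skin, 3 of 13 genes compared were higher by at least 2-fold and 1 lower (median log2 ratio -0.01). The higher ones were Lfng, a modifier of Notch, with 16 UMIs in cilia-gene cells and 47 UMIs in the others (log2 ratio 1.49), Hes6, an antagonist of Hes1, with 111 UMIs in cilia-gene cells and 373 UMIs in the others (1.29, 0.98 to 1.60), and the ligand Dll1 with 29 UMIs in cilia-gene cells and 108 UMIs in the others (1.15), of which 1 cell gave 27.6%. Hey1, a Notch target, had 7 UMIs in cilia-gene cells and 172 UMIs in the others (-1.58).

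Of 16 interferon-induced genes compared, 5 were at least 2-fold higher and 0 lower (median log2 ratio 0.63). Usp18 stood at 61.4 CPM in cilia-gene cells and 26.0 CPM in the other Krt18-high cells (log2 ratio 1.24, 1.10 to 1.38), and Ifit1 at 33.8 CPM in cilia-gene cells and 14.3 CPM in the others (1.24). With hormone-sensing-side cells without progenitor genes on both sides of the comparison, 0 of 15 were higher by at least 2-fold and 1 lower, and Ifit3b, at a log2 ratio of 1.24, turned to -0.26. Ifitm3, a membrane protein of this family picked after its values were seen, stood at 2259.7 CPM in cilia-gene cells and 778 CPM in the others.

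Genes that act on aldehydes and carbonyls, the group of Cbr2, had 4 of 20 past 2-fold, Cbr2, Aldh3b1, Aldh1a7 and Aldh3a1, and 0 lower (median log2 ratio 0.09). Aldh3b1, an aldehyde dehydrogenase, stood at 31.8 CPM in cilia-gene cells and 10.5 CPM in the others (log2 ratio 1.60, 1.40 to 1.80). Of alarmins and cytokines, the group of Il33, 1 of 17 was at least 2-fold higher, Il33 itself, and 2 were lower, Il1a with 1 UMI in cilia-gene cells and 67 UMIs in the others and the Il33 receptor Il1rl1 with 15 UMIs in cilia-gene cells and 275 UMIs in the others. Of 14 calcium-binding genes compared, the group of Pcp4, 2 were at least 2-fold higher, Pcp4 and Calml3, and 0 lower. Calml3 had 22 UMIs in cilia-gene cells and 72 UMIs in the others and a log2 ratio of 1.33, which was -0.10 with a limit of 5 rule UMIs.

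Known targets of the miR-200 family gave 1 of 19 at least 2-fold higher and 1 lower (median log2 ratio -0.05). With hormone-sensing-side cells without progenitor genes in both groups, 4 of 16 were higher by at least 2-fold and 2 lower. The median log2 ratio was then 0.13, and over all genes 5.72% were higher and 3.78% lower. Zeb1 and Zeb2, repressors of epithelial genes and the best known targets, had 14 and 4 UMIs in cilia-gene cells and 98 and 24 in the other Krt18-high cells, their log2 ratios being 0.23 (-0.69 to 1.05) and 0.46 (-1.53 to 2.0). Dlc1, a tumour suppressor, had 72 UMIs in cilia-gene cells and 197 UMIs in the others (log2 ratio 1.59, 1.18 to 1.99). Fn1, fibronectin, had 1 UMI in cilia-gene cells and 477 UMIs in the others. The genes beside the deleted locus had 1 of 10 past 2-fold, Lrrc23 (log2 ratio 2.89), which is also a gene of cilia, and 0 lower. Lrrc23 passes the filter only through the cilia-gene cells. By the level in the others alone, 9 of these genes were compared, with 0 higher and 0 lower. Deletion was not read in single cells, so whether the groups differ in it was not tested.

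Markers of other cell types were read in the same cells, as whole lists. Basal markers had 12 of 12 genes with a UMI, a summed level of 367 CPM in cilia-gene cells and 310 CPM in the other Krt18-high cells, and 3 of 10 compared at least 2-fold higher (Lamb3, Trp63 and Myh11, log2 ratios 1.54, 1.51 and 1.22) with 0 lower. With hormone-sensing-side cells without progenitor genes in both groups, the sum was 586 CPM in cilia-gene cells and 246 CPM in the others, and 8 of 9 basal genes were at least 2-fold higher and 0 lower (median log2 ratio 1.24). Krt14, a basal keratin, then stood at 183 CPM in cilia-gene cells and 81.0 CPM in the others (log2 ratio 1.18, 1.02 to 1.33), and Tagln, a contractile protein, at 108 CPM in cilia-gene cells and 36.1 CPM in the others (1.58, 1.37 to 1.79). Both were under 2-fold in the comparison of all cells, at 0.43 for Krt14 and 0.00 for Tagln. Endothelial markers summed to 52.2 CPM in cilia-gene cells and 37.7 CPM in the others, and 2 of 8 were at least 2-fold higher, Kdr and Plvap; 1 cell gave 58.8% of the Kdr UMIs and 52.9% of the Plvap UMIs of the cilia-gene cells. Plvap had a log2 ratio of 1.31, which was -0.62 with Scrublet calls left out. Fibroblast markers summed to 114 CPM in cilia-gene cells and 207 CPM in the others with Col1a2, Col3a1, Lum and Dpt at 0 in cilia-gene cells. Myeloid markers summed to 28.6 CPM in cilia-gene cells and 24.0 CPM in the others with Ptprc, the pan-leukocyte marker, at 0, while 2 of 6 compared were at least 2-fold lower and 0 higher (median log2 ratio -0.46). Lymphoid markers summed to 14.4 CPM in cilia-gene cells and 29.4 CPM in the others with Cd3d, Cd3g and Ms4a1 at 0. Their part in the results was not tested.

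Markers of other organs that bear motile cilia were read in the same way. Of 12 airway genes, 8 had 0 UMIs in cilia-gene cells, Scgb1a1, Scgb3a2 and Nkx2-1 among them, and the list summed to 1.93 CPM against 7.51 CPM in the other Krt18-high cells. Of 9 oviduct and uterine genes, 6 had 0 UMIs, Pax2 and Emx2 among them. Wfdc2 of that list stood at 3733 CPM in cilia-gene cells and 2652 CPM in the other Krt18-high cells, and it is also a gene of luminal mammary cells, at 7835 CPM in Ctrl Krt18-high cells. Of 8 ependymal and choroid genes, Otx2 and Aqp4 had 0 UMIs in cilia-gene cells and 6 had UMIs. They summed to 25.4 CPM in cilia-gene cells and 35.3 CPM in the others, and 0 of 3 compared were past 2-fold. Of 10 tuft cell genes 5 had 0 UMIs, Trpm5 among them, while Pou2f3, the tuft cell factor, had 31 UMIs in cilia-gene cells and 65 UMIs in the others (log2 ratio 1.98, 1.31 to 2.61). The mesothelial markers Msln, Upk3b and Wt1 were at 0. In the remaining lists, 2 of 6 skin and salivary genes were at least 2-fold higher (Krt13 and Lor), 1 of 3 lymphatic genes (Prox1), 1 of 14 antigen presentation genes (H2-Aa), and 0 of 15 immediate early and stress genes, with 0 lower in these 4 lists.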

How the data were processed

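Single-cell 3′ RNA-seq of mouse mammary cells was used as deposited, in 1 cKO and 1 Ctrl library. The values are counts, whole numbers of UMIs per gene and barcode with no normalization, per the file headers and the values themselves. Cell Ranger 2 and the build mm10 are named in the submitters' processing notes, while the file headers record software version 3.0.0, so the exact version is not given in the sources used here. The 31053 genes of the files were matched by identifier to GENCODE M21 (GRCm38, the same build) for 30934 of them. Every deposited column was used, and no authors' cell annotation was used.

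From these counts the cilia-gene cells were found by the rule, and counts were summed over each group of cells and scaled to CPM. Ratios carry exact conditional binomial 95% intervals, shares exact Clopper-Pearson intervals and levels exact Poisson intervals. A level or share of 0 carries the limit that 3 counts allow. No p-value was computed, because there was 1 library per group. A gene was compared if equal levels would give at least 5 UMIs in the cilia-gene cells. Thinning drew 3000 UMIs per cell without replacement. Cells were clustered with Leiden (resolution 0.5, 2000 variable genes, 30 components, 15 neighbours). Scrublet was run per library at an expected 0.8% per 1000 cells, and its calls were kept in the main results and left out in an alternative. The ratio step was tested on simulated data. Python 3.11.15, numpy 2.4.6, scipy 1.17.1, pandas 2.3.3, scanpy 1.11.5 and matplotlib 3.10.9 were used.

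The members of the cell group, the 35 gene lists and the tests were chosen with earlier results of these data known. Named genes are the rule genes, fixed markers, the 20 highest and 15 lowest ratios among genes found in at least 10% of cells of the higher group, up to 6 genes of each list with the largest ratios, and the 10 genes most correlated with the rule genes. A gene among the 15 lowest is not reported here. Other genes named from the cilia lists, and the genes said to be picked so, were chosen after their values were seen. Prlr, Trf, Lamb3, Gata3, Egfl7, Dnaaf3, Ccdc103, Kif17, Tapbp, S100a4, Wdr92 and Atn1 overlap another annotated gene on the same strand, where reads may be lost. Of 226 cilia genes, 191 had a promoter in the RefSeq table.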

Additional observations from a re-analysis of the deposited data

How the results depend on the processing

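Other limits of the rule moved the share of Krt18-high cells: in cKO it was 9.90% with at least 2 rule UMIs, 5.33% with at least 5, 6.55% without Pifo and 1.03% at 3000 UMIs per cell. In Ctrl it was 0% with at least 5 rule UMIs, without Foxj1 and at 3000 UMIs per cell. Counts over all genes were 2180 higher and 3854 lower with no filter beyond 1 UMI, 312 and 84 with 20 expected UMIs, 997 and 595 against hormone-sensing-side cells, and 1236 and 842 at 1.5-fold. With each cell weighted equally 531 genes were lower. Of cilia genes outside the rule, 54 of 88 were higher with 20 expected UMIs. Lower ones, 0 in the main comparison, were 1 with equal weights, against hormone-sensing-side cells, with at least 5 rule UMIs and at 1.5-fold, and 12 with no filter, where fewer UMIs stand behind a ratio. Cilia-gene cells on both luminal sides were 9.22% at 3000 UMIs. Some directions turned: Kit (1.06) and Trf (0.65) against hormone-sensing-side cells, which were chosen for few Kit UMIs, Plvap (-0.62) without Scrublet calls, Calml3 (-0.10) with 5 rule UMIs, and Ifit3b (-0.26) with hormone-sensing-side cells in both groups, an alternative chosen after seeing the data, as was the filter by the level of the others alone. The cause was not tested. Trimmed mean scaling shifted log2 ratios by 0.03. Of 929 called genes with UMIs in both groups, 16 turned direction against hormone-sensing-side cells, 8 with at least 5 rule UMIs, 8 without Scrublet calls, 3 with equal weights, 2 with hormone-sensing-side cells in both groups, and 0 with trimmed means or 20 expected UMIs, counted among the genes that an alternative still compared. Of cilia genes outside the rule 0 turned. No paired analysis was possible because each group has 1 library. Depth limits single genes: a gene with 0 UMIs in cilia-gene cells could still stand at up to 0.341 CPM.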

Other observations

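Snai2, which encodes the transcription factor Slug of basal and migrating epithelial cells and was picked after its values were seen, had 49 UMIs in cilia-gene cells and 28 in the other Krt18-high cells (5.56 CPM in cilia-gene cells and 0.386 CPM in the other Krt18-high cells, log2 ratio 3.85, 95% interval 3.15 to 4.57). By its level in the others alone Snai2 would not be compared, as it passes the filter only through the cilia-gene cells. With hormone-sensing-side cells without progenitor genes in both groups it had 20 UMIs in cilia-gene cells and 12 in the others. These are too few for the limit of 5 expected UMIs, so the log2 ratio of 3.74 is only a description. Among all Krt18-high cKO cells Snai2 was found in 13.9% of cilia-gene cells and 0.647% of the other Krt18-high cells. Pltp, the phospholipid transfer protein, and Ctxn1, a small membrane protein, both picked in the same way, stood at 43.9 and 56.3 CPM in cilia-gene cells and at 3.55 and 5.94 CPM in the other Krt18-high cells. The 3 Krt18-low cKO cells that met the cilia limit had a median of 16834 UMIs. Sftpc, a lung surfactant gene, had 8 UMIs in cilia-gene cells and 460 in the other Krt18-high cells.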
